A study of Mus musculus with 15 samples.

Results

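Hmgcs1, Idi1, Fdps, Sqle, Lss and Cyp51 encode enzymes of cholesterol synthesis, and Insig1 encodes the protein that holds the pathway's transcription factor back when sterols are plentiful. These 7 genes were taken by symbol from the 19602 genes of the deposited table, and all 7 passed the filter on low values. Kidney RNA was measured in 15 libraries from Tert+/+ mice (wild type, WT) and from generation 3 (G3) Tert-/- mice, which lack the reverse transcriptase of telomerase and are the third generation bred without it. Mice of 6 to 8 weeks, labelled as males and females, received 1 intraperitoneal injection of either folic acid at 125 mg/kg or vehicle (200.0 ul of 0.3 M NaHCO3), and kidneys perfused with cold saline were taken at day 14. Folic acid in large amounts injures the kidney tubule. The groups were WT vehicle (n = 4), WT folic acid (n = 3), G3 vehicle (n = 4) and G3 folic acid (n = 4). The tissue was whole kidney, so fewer cells of a type and less RNA per cell cannot be told apart in any value here. Strain background, litter and breeding were not given in the sources used here.

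Cells build cholesterol from acetyl-CoA through mevalonate, isoprenoid phosphates, squalene and lanosterol. When the membrane of the endoplasmic reticulum is low in sterol, the escort protein SCAP carries SREBP2 (gene Srebf2) to the Golgi, where it is cut so that its DNA-binding part can enter the nucleus and raise transcription of nearly every enzyme of the route. INSIG proteins keep SCAP in place when sterol is high, and Insig1 is itself a target of SREBP2. In the kidney the proximal tubule also takes up and handles sterols, and many of its metabolic genes are known to differ between male and female mice.

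The libraries held 5014684 to 6609307 reads (median 6091019). The values, called normalised counts below, are reads per gene after the authors' scaling of each library by its size factor, and 1 read was worth 0.895 to 1.13 of them. Among the 7 genes the reads behind a single value ranged from 14 to 39 for Lss and from 16 to 56 for Fdps, against 1634 to 4649 for Hmgcs1, so the values of Lss and Fdps carry the most counting error. Xist, the RNA of the inactive X chromosome, and RNA of 4 genes of the Y chromosome (Kdm5d, Uty, Ddx3y and Eif2s3y) went against the labelled sex in 10 of the 13 libraries that held mainly 1 of the 2 kinds, and 2 further libraries held both. The summed Y-linked level was 668 to 867 in 5 libraries (WT vehicle 1, 3 and 4, G3 folic acid 1 and 3), 273 and 283 in the 2 libraries with both (G3 folic acid 4 and WT vehicle 2) and 0.977 to 29.5 in the other 8, which held Xist at 3147 to 5217. All 3 WT folic acid and all 4 G3 vehicle libraries were among those 8, and no WT vehicle library was. Tert itself was at 3 to 20 reads in WT and 3 to 14 in G3 libraries; reads from the 3' end do not check a deletion elsewhere in the gene, and the labels do not say where the deletion lies. Defining markers of proximal tubule were high throughout (Slc34a1 at 5544 to 21705, Lrp2 at 4109 to 12467). Fat RNA stood out in G3 vehicle 1 (Adipoq 297, against 0 to 43 elsewhere) and liver RNA in WT vehicle 3 and G3 folic acid 2 (Alb 852 and 823). Gm42418, a transcript that overlaps a ribosomal RNA repeat, took 23.0% of the reads of WT folic acid 1 and 4.85 to 8.15% of those of the other 14 libraries.

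Group differences were tested with limma on log2(normalised count + 1) over 14651 genes, with p-values adjusted by Benjamini-Hochberg over all of them, and a gene is said to have risen or fallen where the adjusted p was under 0.05. All p-values rest on the spread between libraries within groups, taken as a single estimate per gene shared by the 4 groups. The labels list these libraries as separate samples without saying more. Each comparison was fitted with the 4 groups alone and again with the Y share, which is a library's summed Y-linked level over that of the highest library. The labelled sex was not used as the main term because of the mismatch above.

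The gene for HMG-CoA synthase, Hmgcs1, lies on chr13:119690379-119708260 (GRCm38, plus strand), and that for isopentenyl diphosphate isomerase, Idi1, on chr13:8885501-8892451 (plus strand). Tert lies on the same chromosome, at chr13:73626911-73649843. The promoters of these 2 genes are shown with that of Cyp51, because the first 2 genes followed the groups and Y-linked RNA in the values below while Cyp51 did not. RefSeq promoter windows (GRCm38.p6) run from 250 bases before to 50 bases after the start, and 5 of the 7 genes matched: these 3, Lss and Insig1. Capitals mark 4 motifs on either strand: TCACNCCAC (the core of a sterol element, bound by SREBP), CCAAT (the box of NF-Y, read ATTGG on the other strand), GGGCGG (the box of Sp1, read CCGCCC on the other strand) and CACGTG (an E box). No matches overlapped in these 5 windows.

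Hmgcs1, chr13:119690101-119690400, plus strand: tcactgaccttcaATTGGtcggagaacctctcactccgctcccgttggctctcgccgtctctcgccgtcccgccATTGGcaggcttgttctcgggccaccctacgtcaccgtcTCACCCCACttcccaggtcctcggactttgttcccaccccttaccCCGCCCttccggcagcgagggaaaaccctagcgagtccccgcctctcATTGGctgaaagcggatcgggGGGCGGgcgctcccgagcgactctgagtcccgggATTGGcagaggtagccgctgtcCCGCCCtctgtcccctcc

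Idi1, chr13:8885356-8885655, plus strand: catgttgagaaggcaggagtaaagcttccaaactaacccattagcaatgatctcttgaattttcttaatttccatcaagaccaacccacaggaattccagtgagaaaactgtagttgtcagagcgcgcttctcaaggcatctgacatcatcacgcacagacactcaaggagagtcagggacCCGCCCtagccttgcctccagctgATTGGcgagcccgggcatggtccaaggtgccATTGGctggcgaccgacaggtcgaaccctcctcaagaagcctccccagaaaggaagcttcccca

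Cyp51, chr5:4104648-4104947, minus strand: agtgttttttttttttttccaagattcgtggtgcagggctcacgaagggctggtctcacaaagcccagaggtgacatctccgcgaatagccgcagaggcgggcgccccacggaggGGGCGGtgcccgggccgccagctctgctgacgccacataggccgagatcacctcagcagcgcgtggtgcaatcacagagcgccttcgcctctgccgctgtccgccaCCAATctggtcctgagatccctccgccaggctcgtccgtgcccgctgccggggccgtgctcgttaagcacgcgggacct

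The Hmgcs1 window held the sterol element core, as TCACCCCAC, 137 to 129 bases before the start, a match found in 1.24% of the 32851 RefSeq promoters. The same letters were in no other window of the 5, nor in those of the 13 other cholesterol synthesis enzymes with an entry. Hmgcs1 also had 4 CCAAT and 3 GGGCGG matches. Idi1 had 2 CCAAT matches, 45 to 41 and 14 to 10 bases before the start, and 1 GGGCGG match. Cyp51 had 1 of each. All 5 windows held CCAAT, which 37.4% of all promoters hold, and all 5 held GGGCGG, which 35.7% hold. CACGTG, in 7.15% of promoters, was in the window of Insig1. These are matches of letters in 1 window per gene and show neither binding nor its absence.

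**Figure D1:**
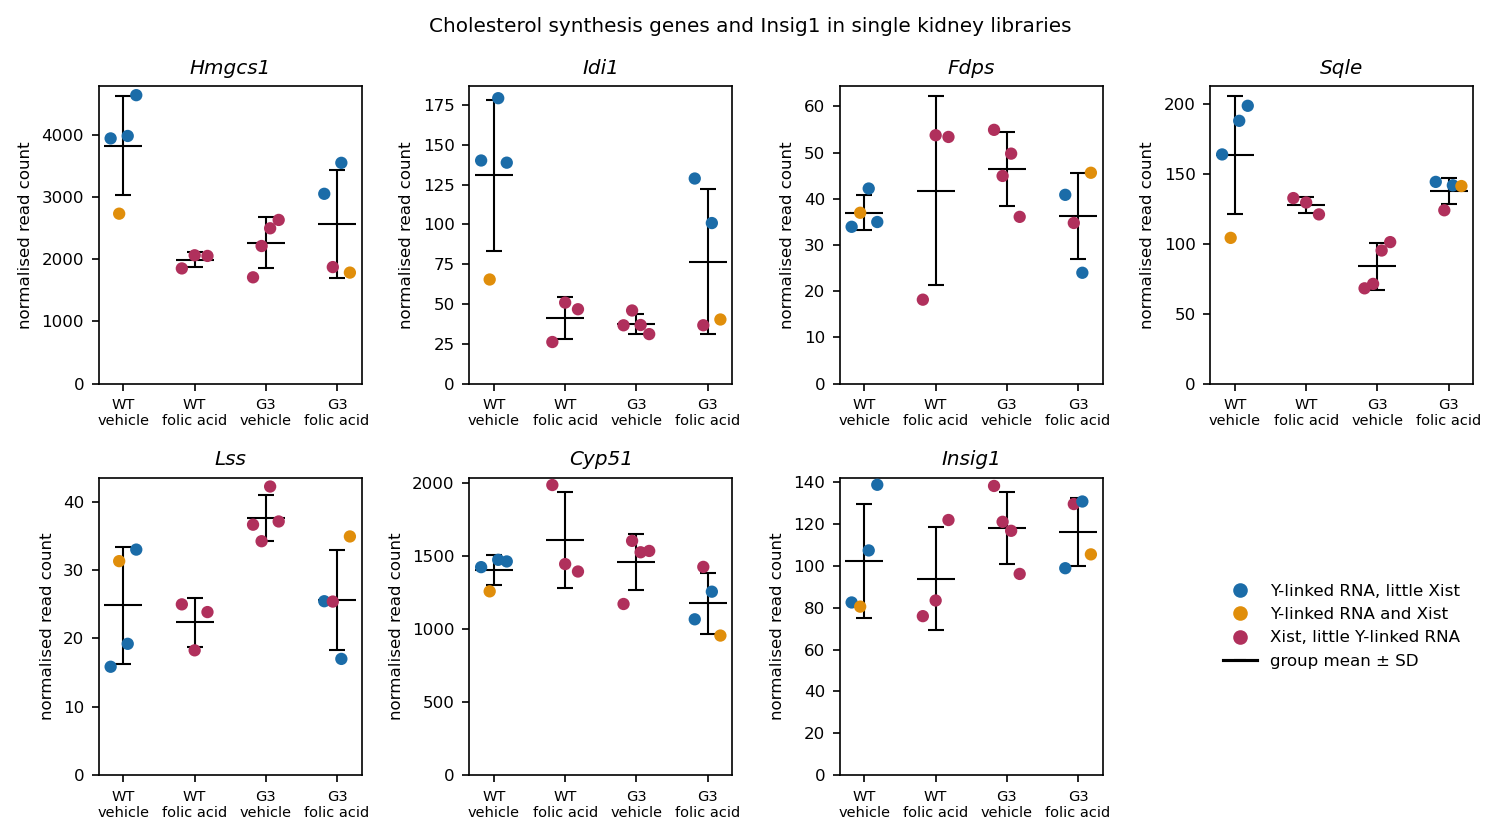
Normalised read counts (vertical axis, from 0) of the 7 genes in each library of the 4 groups (horizontal axis), with group mean and SD as bars and colours for libraries with Y-linked RNA, with Xist or with both. Hmgcs1 and Idi1 are highest in the 5 libraries coloured for Y-linked RNA, and Cyp51 and Insig1 show no such order.

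After folic acid, 2 of the 7 genes fell in WT kidneys, Hmgcs1 and Idi1. Hmgcs1, whose product joins acetyl-CoA to acetoacetyl-CoA at the entrance to the pathway, and Idi1, whose product turns isopentenyl into dimethylallyl diphosphate, were lower in every folic acid library than in any vehicle library. For Hmgcs1 the normalised counts were 3948, 2736, 3987 and 4644 in WT vehicle 1 to 4 and 1854, 2066 and 2055 in WT folic acid 1 to 3. The means were 3829 ± 796 (SD, n = 4) and 1991 ± 119 (SD, n = 3), a log2 difference of -0.92 (SE 0.23, limma adjusted p = 0.0330), or 0.529 of the vehicle level. For Idi1 they were 140.2, 65.4, 179 and 139 after vehicle and 26.1, 50.9 and 46.7 after folic acid. Its log2 difference was -1.61 (SE 0.41, limma adjusted p = 0.0334), or 0.328 of the vehicle level. WT vehicle 2, the vehicle library with Xist as well as Y-linked RNA, was the lowest of its group for both genes. WT folic acid 1, the library with the most Gm42418 and with Slc34a1 at 5544 against 16057 and 16626 in the other 2, was the lowest of the folic acid libraries for both genes; without it the log2 differences were -0.87 and -1.32 and neither was called (limma adjusted p = 0.113 and 0.141).

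The other 5 genes did not pass the test in WT. Sqle, squalene epoxidase, which puts the first oxygen on squalene, was at 164, 104, 188 and 199 after vehicle and 133, 129.6 and 121 after folic acid (log2 difference -0.31, SE 0.20, limma adjusted p = 0.360), and the groups overlapped through WT vehicle 2. Fdps, which makes farnesyl diphosphate, Lss, which closes the lanosterol ring, Cyp51, which takes a methyl group off lanosterol, and Insig1 had log2 differences of 0.02, -0.09, 0.18 and -0.12. Fdps was at 18.2 in WT folic acid 1 and at 53.7 and 53.4 in the other 2, so its group was wider than the difference asked about, and with 1 library left out the log2 difference of Fdps ranged from -0.23 to 0.53. Over all genes tested 5.06% were called in this comparison, 2.89% as lower, and in 19.9% the 2 groups did not overlap. The median log2 difference was -0.12 over the 7 genes and 0.01 over all genes.

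Both calls moved with Y-linked RNA. The WT vehicle libraries had a mean Y share of 0.814 ± 0.325 (SD, n = 4) and the WT folic acid libraries one of 0.0205 ± 0.0120 (SD, n = 3). After the Y share was added, the folic acid difference in WT was -0.05 (SE 0.24, limma adjusted p = 0.992) for Hmgcs1 and 0.03 (SE 0.38, limma adjusted p = 0.995) for Idi1. None of the 7 genes was called in that fit, nor were any but 0.00683% of all genes. No WT vehicle library was without Y-linked RNA, so within libraries of 1 kind the folic acid comparison in WT could not be made. The summed level of the 8 tubular injury markers was 2214 to 3438 after vehicle and 4125 to 7878 after folic acid, and that of the 10 proximal tubule markers 40503 to 53512 and 26749 to 43258. Of the 8 injury markers Spp1 and Cp were called in WT. Havcr1 and Lcn2 were at 44.2 and 358 in WT folic acid 1, but at 0.953 to 4.80 and 11.5 to 12.4 in the other 2, inside the vehicle ranges of 0 to 4.995 and 1.90 to 21.5. Their part in the values of Hmgcs1 and Idi1 was not tested. With any 1 of WT vehicle 1, 3 or 4 or of the 3 folic acid libraries left out, neither gene was called, with log2 differences of -0.95 to -0.82 for Hmgcs1 and -1.79 to -1.32 for Idi1.

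In G3 kidneys none of the 7 genes passed the test after folic acid, where 0.273% of all genes did. At an unadjusted p under 0.05 there were 4, against 13.8% of all genes, and on the recovered reads edgeR called 0 and DESeq2 called 1, Sqle. The shares of all genes called by edgeR and DESeq2 are not given here, so that 1 call cannot be set against them. The normalised counts of Sqle were 68.1, 71.3, 95.2 and 101 in G3 vehicle 1 to 4 and 144, 124, 142 and 141 in G3 folic acid 1 to 4, with no overlap, which 7.75% of all genes showed in this comparison. The log2 difference was 0.73 (SE 0.18, limma adjusted p = 0.0786; DESeq2 adjusted p = 0.0231). G3 folic acid 2, the library of its group with Xist and little Y-linked RNA, was the lowest of the group and still above all 4 vehicle libraries.

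Hmgcs1 and Idi1 were split inside the G3 folic acid group. Hmgcs1 was at 3056 and 3554 in G3 folic acid 1 and 3, the libraries with Y-linked RNA, and at 1875 and 1787 in G3 folic acid 2 and 4, against 1711 to 2635 after vehicle. Idi1 was at 129 and 101 in the first pair and at 36.6 and 40.3 in the other, against 31.1 to 45.9 after vehicle. The log2 differences were 0.14 (SE 0.21) for Hmgcs1 and 0.82 (SE 0.38) for Idi1. The remaining members had log2 differences from -0.57 (Lss, which was at 36.6, 34.2, 42.2 and 37.1 after vehicle and 25.4, 25.4, 17 and 34.9 after folic acid) to -0.02 (Insig1). Once the Y share was added, the differences of Hmgcs1 and Idi1 were -0.38 (SE 0.18) and -0.15 (SE 0.28), that of Sqle was 0.42 (SE 0.20), and again none of the 7 was called, against 0.0614% of all genes.

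**Figure D2:**
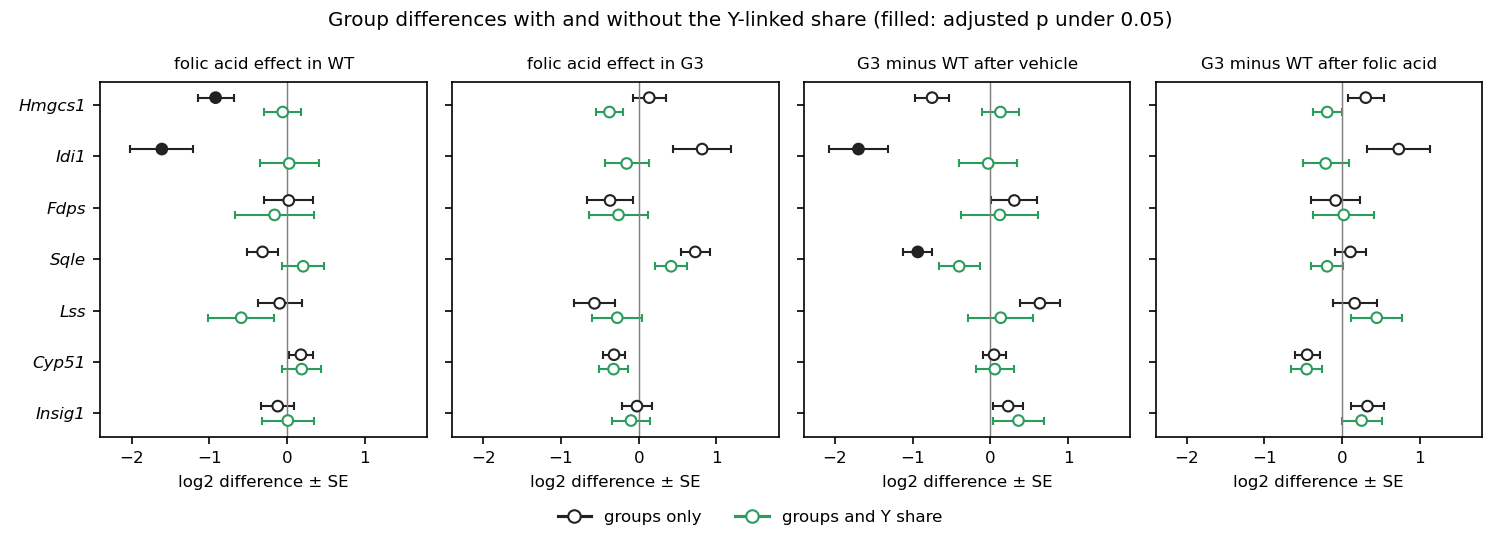
Log2 differences with standard errors (horizontal axis) of the 7 genes (rows) in 4 comparisons, with the 4 groups alone (black) and with the Y share added (green); filled points had an adjusted p under 0.05. The 4 filled points, Hmgcs1 and Idi1 in WT after folic acid and Idi1 and Sqle in G3 against WT after vehicle, have no filled counterpart in green.

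After vehicle, Idi1 and Sqle were lower in G3 than in WT kidneys. Idi1 was at 31.1 to 45.9 in G3 and at 65.4 to 179 in WT, with means of 37.6 ± 6.15 (SD, n = 4) and 131 ± 47.6 (SD, n = 4). The log2 difference was -1.70 (SE 0.38, limma adjusted p = 0.0235), or 0.308 of the WT level. Sqle was at 68.1 to 101 in G3 and at 104 to 199 in WT, with means of 84.0 ± 16.7 (SD, n = 4) and 163.8 ± 42.3 (SD, n = 4). Its log2 difference was -0.93 (SE 0.18, limma adjusted p = 0.0129). Over all genes 2.9% were called, 2.03% as lower.

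In this comparison the groups of 4 members did not overlap: Hmgcs1, Idi1 and Sqle were lower in all G3 vehicle libraries and Lss was higher in all of them, where 11% of all genes had groups apart. Hmgcs1 was at 1711 to 2635 in G3 against 2736 to 4644 in WT (log2 difference -0.75, SE 0.21, limma adjusted p = 0.0656). Lss, the later enzyme, was at 34.2 to 42.2 against 15.8 to 33 (log2 difference 0.64, SE 0.26, limma adjusted p = 0.205). Fdps, Cyp51 and Insig1 overlapped between the groups, with log2 differences of 0.31, 0.05 and 0.23. The Y share again separated the groups, with 0.00567 ± 0.00326 (SD, n = 4) in G3 vehicle. With it in the fit the differences were -0.03 (SE 0.37) for Idi1, -0.40 (SE 0.26) for Sqle and 0.13 (SE 0.24) for Hmgcs1, none of the 7 was called, and neither were any but 0.00683% of all genes. Without WT vehicle 1 or 4 neither Idi1 nor Sqle was called (adjusted p = 0.0920 and 0.0814 for Idi1, 0.0543 and 0.0649 for Sqle), and without WT vehicle 3, G3 vehicle 3 or G3 vehicle 4 Idi1 was not (adjusted p = 0.0662, 0.0631 and 0.0749).

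After folic acid, none of the 7 genes differed between G3 and WT past the threshold, while 2.3% of all genes did. 1 of the 7 had an unadjusted p under 0.05, which 20.4% of all genes had, and edgeR and DESeq2 also called 0. That was Cyp51, at 1065, 1423, 1254 and 954 in G3 and 1983, 1443 and 1392 in WT (log2 difference -0.45, SE 0.16, limma adjusted p = 0.129), whose ranges met between 1392 and 1423. All 7 genes had overlapping groups here, whereas 17.3% of all genes did not. Sqle was as close as 138 ± 9.34 (SD, n = 4) in G3 and 127.8 ± 6.04 (SD, n = 3) in WT. With the Y share in the fit 0 of the 7 and 0.116% of all genes were called.

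The difference between the 2 folic acid effects, G3 minus WT, was tested as an interaction and called Idi1 and Sqle, both higher. It was 2.43 (SE 0.55, limma adjusted p = 0.0221) for Idi1, from a change of -1.61 in WT and 0.82 in G3. For Sqle it was 1.04 (SE 0.27, limma adjusted p = 0.0396), from -0.31 and 0.73. Hmgcs1 had 1.05 (SE 0.31, limma adjusted p = 0.0749). The other 4 lay between -0.50 (Cyp51) and 0.10 (Insig1). Over all genes 3.82% were called, 2.16% as higher. Once the Y share was added, the interaction was -0.18 (SE 0.57) for Idi1 and 0.21 (SE 0.41) for Sqle, and 0 of the 7 were called, against 0.0137% of all genes. The call of Idi1 was lost without WT vehicle 1, 3 or 4 or G3 folic acid 3 (adjusted p = 0.0534, 0.0510, 0.0531 and 0.0522). That of Sqle was kept without WT vehicle 2, G3 vehicle 3 or 4 or G3 folic acid 2 and lost without any 1 of the other 11 libraries, with adjusted p = 0.0539 to 0.0990 and log2 differences of 0.94 to 1.07.

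**Figure D3:**
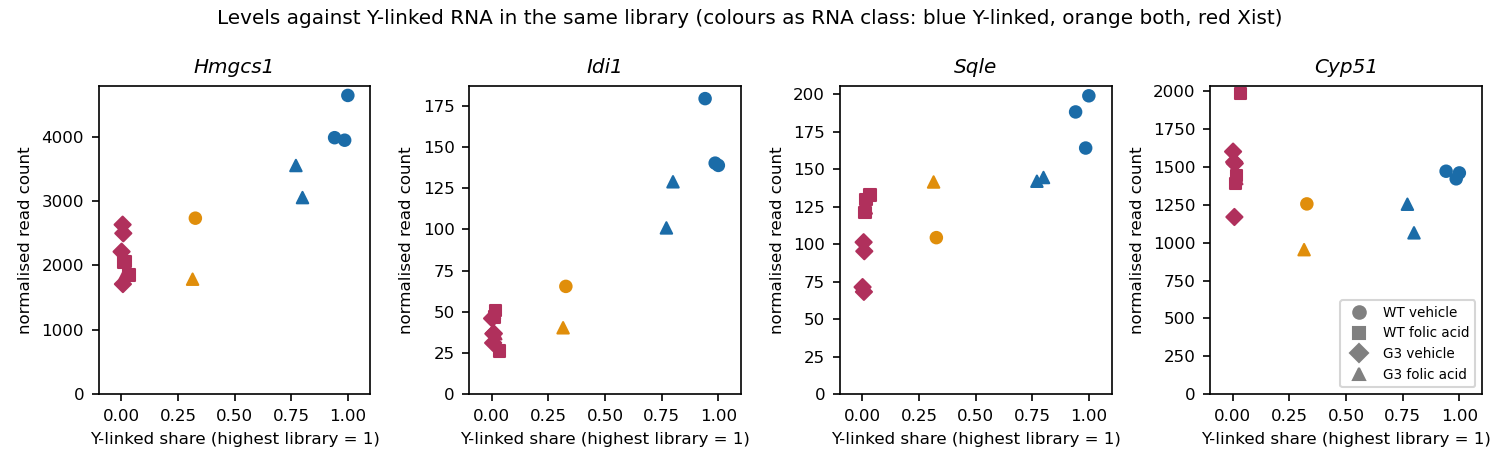
Normalised read counts (vertical axis, from 0) of Hmgcs1, Idi1, Sqle and Cyp51 against the Y share (horizontal axis, the highest library at 1) in 15 libraries, with marker shapes for the groups and colours for Y-linked RNA, Xist or both. Hmgcs1 and Idi1 are at 3056 or more and at 101 or more in the 5 libraries with Y-linked RNA, and lower in the other 10, while Cyp51 stays within 954 to 1983 at every share.

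Hmgcs1 and Idi1 followed Y-linked RNA across and within groups. This comparison was added after the values were seen. Hmgcs1 was at 3056 to 4644 in the 5 libraries with Y-linked RNA, at 1787 and 2736 in the 2 with both kinds and at 1711 to 2635 in the 8 with Xist. Idi1 was at 101 to 179, at 40.3 and 65.4, and at 26.1 to 50.9. Neither gene's values overlapped between the 5 and the 8 libraries, nor did those of Sqle, so 3 of the 7 genes were apart, where 4.24% of all genes were. The 5 were all from WT vehicle or G3 folic acid. All of the 8 but G3 folic acid 2 were from WT folic acid or G3 vehicle, so this split largely repeats the groups. In the fit of groups and Y share, the change from a Y share of 0 to that of the highest library was 1.09 on the log2 scale for Hmgcs1 (SE 0.23, limma adjusted p = 0.0234) and 2.07 for Idi1 (SE 0.37, limma adjusted p = 0.00620), both higher. Among all genes 1.3% were called on the Y share, 0.73% as higher.

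The Y share varied within only 2 groups, WT vehicle (0.327 to 1) and G3 folic acid (0.0173 to 0.800), so these changes rest on those 8 libraries. Without WT vehicle 2 neither gene was called (adjusted p = 0.124 for Hmgcs1 and 0.0526 for Idi1). Hmgcs1 was also not called without WT vehicle 4 or G3 folic acid 1, 2 or 3 (adjusted p = 0.0606, 0.0635, 0.0834 and 0.117). Without any 1 library the change stayed within 0.96 to 1.23 for Hmgcs1 and 1.87 to 2.22 for Idi1. Sqle, at 142 to 199 in the 5 libraries and 68.1 to 133 in the 8, had a change of 0.66 (SE 0.26, limma adjusted p = 0.322). Fdps, Lss, Cyp51 and Insig1 had changes of -0.23, -0.62, 0.01 and 0.16, none past the threshold, and their values overlapped between the 5 and the 8 libraries.

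Over the 5 group comparisons with the Y share, 0, 0, 0, 1 and 0 of the 7 genes had an unadjusted p under 0.05 in limma, where 4.38%, 8.93%, 5.79%, 10.5% and 2.78% of all genes did, and edgeR with the Y share called 0 in each.

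Among the 8 libraries with Xist the group and treatment could be seen apart from Y-linked RNA, though with 1 G3 folic acid library and no WT vehicle library. Hmgcs1 was at 1854 to 2066 in the WT folic acid libraries, 1711 to 2635 in those of G3 vehicle and 1875 in G3 folic acid 2. Idi1 was at 26.1 to 50.9, 31.1 to 45.9 and 36.6. Sqle was at 121 to 133 in the WT folic acid libraries and 124 in G3 folic acid 2, above the 68.1 to 101 of G3 vehicle. These values are descriptions with no test.

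Summed markers of kidney segments had overlapping ranges in the same libraries, with medians that differed. The summed proximal tubule markers were at 32546 to 53512 in the 5 libraries with Y-linked RNA and 24889 to 43258 in the 8 with Xist, and those of the thick ascending limb and distal tubule at 18379 to 25428 and 24171 to 35932. Their medians were 42976.5 and 36883.1 for the proximal tubule and 21682.3 and 27022.3 for the thick ascending limb and distal tubule. Of the 10 proximal tubule markers 8 overlapped, such as Lrp2 at 4109 to 8133 and 5498 to 12006, and 2 were higher in all libraries with Y-linked RNA: Slc22a6, an organic anion transporter, at 2262 to 4107 and 749 to 1594, and Slc7a13, an amino acid transporter of the last segment, at 1919 to 4484 and 12.7 to 113. Among all genes 4.24% were apart between the same libraries. The summed liver markers (6 of the 7 listed were in the table) were at 964 to 2864 and 246 to 1822, and those of adipose tissue (6 of 7) at 176 to 753 and 131 to 3565. The adrenal cortex, which makes steroids from cholesterol, left little RNA: Star was at 3.91 to 21.6 and Mc2r at 0 to 6.99, with 3 of its 8 markers in the table and the others not analysed here. The part of these markers in the values of Hmgcs1 and Idi1 was not tested.

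**Figure D4:**
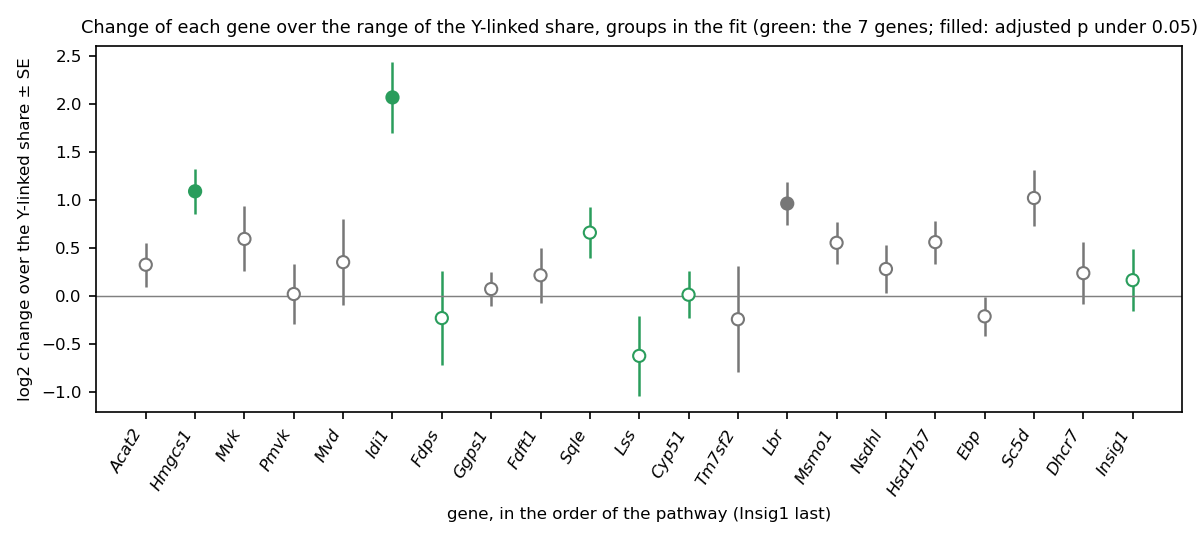
Log2 change from a Y share of 0 to that of the highest library with its standard error (vertical axis), with the groups in the fit, for the 7 genes (green) and 14 of the 16 other enzymes (grey) in the order of the pathway; filled points had an adjusted p under 0.05. Hmgcs1, Idi1 and Lbr are filled, and Fdps and Cyp51 lie at -0.23 and 0.01.

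The 16 other enzymes of the route were read against the 7 genes. None was called for folic acid in WT, where 6 had an unadjusted p under 0.05 (23.1% of all genes did) and 12 of 16 had a negative difference (median log2 difference -0.31, against 0.01 over all genes). Among all genes 51.3% had a positive difference there. None was called for folic acid in G3 or for G3 against WT after vehicle, with 1 and 7 at an unadjusted p under 0.05, against 13.8% and 17.9% of all genes. DESeq2 called 1, 0 and 1 in these 3 comparisons, for which its shares of all genes are not given here. With limma 1 of the 16 was called for G3 against WT after folic acid and 1 in the interaction. Over all genes the shares called there were 2.3% and 3.82%.

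On the Y share 1 of the 16 enzymes was called, Lbr, a lamin receptor that is also a sterol reductase, with a change of 0.96 (SE 0.22, limma adjusted p = 0.0428). The share of all genes called there was 1.3%. Lbr was at 158 to 178 in the 5 libraries with Y-linked RNA and at 78.7 to 124 in the 8 with Xist. Dhcr7, another of the 16, was also apart, at 46.0 to 55.4 and 26.1 to 41.9, and was not called. Among all genes 4.24% were apart between these libraries. Sc5d, a desaturase near the end of the route, had a change of 1.02 (SE 0.29, limma adjusted p = 0.115), and its values overlapped, at 165 to 230 and 101 to 207. The change was positive for 13 of the 16, and for 49.7% of all genes (median 0.30, against 0.00 over all genes). Fdft1, squalene synthase, had a change of 0.22 and passed the test in none of the 5 group comparisons.

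None of the regulators of the pathway passed the test between groups. Srebf2 was at 145 to 238 in all libraries, with log2 differences from -0.19 to -0.04 in the 4 group comparisons and adjusted p of 0.519 or more, and Insig2, the sister of Insig1, at 48.3 to 83.6 with 0.09 to 0.25. Srebf1, which drives fatty acid synthesis, was at 1.13 to 30.3, too few reads for a narrow estimate (log2 difference 1.37, SE 0.56, limma adjusted p = 0.198 for G3 against WT after vehicle). None of the 16 listed genes of SREBP control and sterol uptake was called in the 5 comparisons. Abca1, the exporter of cholesterol that oxysterols induce, had log2 differences from 0.26 to 0.67 with no call.

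Genes of fatty acid synthesis moved both ways. Me1, the malic enzyme that supplies NADPH, fell in WT after folic acid (-1.07, limma adjusted p = 0.0309) and was lower in G3 after vehicle (-1.10, limma adjusted p = 0.0242), as Idi1 was. Elovl6, which lengthens palmitate, rose in WT (2.04, limma adjusted p = 0.0184) and was higher in G3 after vehicle (1.78, limma adjusted p = 0.0263), the opposite direction. On the Y share Me1 and Acss2, an acetyl-CoA synthetase, rose by 1.25 and 1.51 and Elovl6 fell by 2.34 on the log2 scale (limma adjusted p = 0.0220, 0.00169 and 0.00126). Scd1, the stearoyl-CoA desaturase, was higher in G3 after vehicle (2.27, limma adjusted p = 0.0487), with 14699 in G3 vehicle 1, the library with fat RNA, and 2614 to 3653 in the other 3. By RNA class, Scd1 was at 499 to 1687 in the 5 libraries with Y-linked RNA and 2124 to 14699 in the 8 with Xist. After folic acid Elovl6 was lower in G3 than in WT (-1.88, limma adjusted p = 0.0332). In the interaction, the difference of the folic acid effects, Elovl6 and Scd1 were called as lower (-3.66 and -3.85) and Me1 as higher (1.55). The Scd1 value includes G3 vehicle 1.

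Among genes of sterol transport, storage and oxidation, Cyp7b1, an oxysterol hydroxylase, had the widest range. It was at 336 to 646 in the 5 libraries with Y-linked RNA, 59.7 and 187 in the 2 with both and 5.41 to 19.3 in the 8 with Xist. It fell in WT after folic acid (-4.92, limma adjusted p = 0.0157) and was lower in G3 after vehicle (-5.19, limma adjusted p = 0.00752). Cyp7b1 was called as higher in the interaction (8.78, limma adjusted p = 0.00260) and rose on the Y share (5.61, limma adjusted p = 0.000281). Soat2, which esterifies cholesterol, rose in WT after folic acid (1.34, limma adjusted p = 0.0457), from 5.76 to 7.99 up to 15.3 to 23. Nceh1, a cholesterol ester hydrolase, was lower in G3 than in WT after folic acid (-0.99, limma adjusted p = 0.0112). None of the pathway genes named here was called in a group comparison that also held the Y share.

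The 7 genes did not move as 1 block. Pearson's r over the 15 libraries between each gene and the mean of the 7 standardised log2 levels, which contains the gene itself, was 0.76 for Hmgcs1, 0.68 for Idi1, 0.49 for Insig1, 0.45 for Sqle, 0.21 for Fdps and 0.02 for both Lss and Cyp51. Of 11755 other genes with a mean of at least 20, the 10 with the highest r to that mean were Atf6b (0.88), Vps16 (0.87), Msmo1 (0.86), Hyou1 (0.86), Chpt1 (0.85), Fads3 (0.85), Pllp (0.84), Slc25a51 (0.84), 2210011C24Rik (0.84) and Vps54 (0.84). Msmo1, the methylsterol oxidase that acts after Cyp51, was the only 1 of the 16 other enzymes among them, at 152 to 221 in the libraries with Y-linked RNA and 127 to 179 in those with Xist. The points share libraries and depth, and these values are descriptions.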

How the data were processed

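Per the labels, libraries were made from kidney RNA with a stranded QuantSeq kit that reads the 3' end of polyadenylated RNA. The submitters' processing notes name HTSeq 0.6.1, DESeq2, SAMtools 0.1.19, TopHat2 2.0.10, FastQC 0.11.7 and Bowtie 1.0.0, with GRCm38 as the build. The annotation they used is unstated in these sources. The authors deposited 1 table of signal values, gene counts divided by 1 size factor per library. Dividing by the step between low values recovered whole reads for 100.0% of values (within 0.001).

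Tests covered genes that reached a normalised count of 10 in 3 or more libraries. They used limma 3.58.1 with a mean-variance trend (R 4.3.3), on log2(normalised count + 1), with 1 term per group over all 15 libraries, so that differences of low genes are understated. The Y share was added in a further fit, and its own coefficient was examined after the values were seen. Other alternatives were edgeR 4.0.16 and DESeq2 1.42.0 on the recovered reads, TMM factors, other filters and pseudocounts, the labelled sex, the series of sample names, the compared groups alone and each library left out. The procedure was tested on simulated data. Libraries are numbered in accession order, which pairs nothing. The 7 genes and the lists were chosen with earlier results of these data known. Named genes were the 7, those called in each list, set regulators and enzymes, and the 10 genes most alike in pattern. Some genes that this rule names are not reported here. Positions come from GENCODE M21 and promoters from RefSeq, both GRCm38. Idi2, a neighbour and close relative of Idi1, was not analysed here, and reads shared between near-identical copies cannot be told apart.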

Additional observations from a re-analysis of the deposited data

Results flagged for a closer look

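Sqle in G3 folic acid 2 was at 124 normalised counts, apart from the 141 to 144 of the other 3 libraries of its group; its gap to the nearest of them was above Dixon's 95% limit for 4 values. It was the 1 such value among the 7 genes in the 3 groups of 4 libraries, and chance gives about 1 in 20 groups.

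The folic acid effect differed between G3 and WT, by the interaction in limma, for Idi1 (2.43 on the log2 scale, adjusted p = 0.0221) and for Sqle (1.04, adjusted p = 0.0396). For Idi1, 3 of 3 WT folic acid libraries were below all 4 WT vehicle libraries, and 2 of 4 G3 folic acid libraries were above all 4 G3 vehicle libraries. With the Y share in the fit neither interaction was called.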

How the results depend on the processing

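With the 4 groups alone, 2, 0, 2, 0 and 2 of the 7 genes were called for folic acid in WT, folic acid in G3, G3 against WT after vehicle, G3 against WT after folic acid and the interaction, and 0, 0, 0, 1 and 1 of the 16 other enzymes. Over all genes the shares called were 5.06%, 0.273%, 2.9%, 2.3% and 3.82%. With the Y share they were 0.00683%, 0.0614%, 0.00683%, 0.116% and 0.0137%, so calls fell over all genes too. Shares for the other fits below are not given here. All counts of the 7 became 0 with the Y share, with the labelled sex, with the Y share after leaving out the 2 libraries of both kinds, and with edgeR and the Y share. The 2 enzyme calls became 0 in the same fits, except that with the labelled sex that of G3 against WT after folic acid remained 1. All WT vehicle libraries were labelled female and had Y-linked RNA, so both terms in part follow the groups. For the series of sample names, G3 vehicle 4 alone of its group shared a series with other groups. The counts of that fit are therefore not read here. With the Y share, alone, without the 2 libraries and in edgeR, the sign of Idi1 turned for folic acid in WT (0.028, 0.032 and 0.117) and in the interaction (-0.183, -0.046 and -0.252), and in edgeR also for G3 against WT after vehicle (0.00335); the cause was not tested. The compared groups alone (fewer libraries) and DESeq2 each called 1 of the 7 for folic acid in G3, 1 enzyme for folic acid in WT and 1 for G3 against WT after vehicle, and DESeq2 called 2 enzymes for G3 against WT after folic acid. Without the 2 libraries of both kinds, 3 enzymes were called for folic acid in WT and 2 in the interaction, and 0 of the 7 on the Y share (2 otherwise). With 1 library left out the counts of the 7 ranged from 0 to 2, 0 to 1, 0 to 3, 0 to 0, 0 to 3 and, on the Y share, 0 to 2, and those of the enzymes from 0 to 3, 0 to 0, 0 to 1, 0 to 1 and 0 to 2. Other filters, pseudocounts, TMM factors and edgeR with the groups alone left each count of the 7 within 1.5 times. No paired analysis was possible because replicate numbers follow accession order and pair nothing. Depth limits Lss and Fdps most, at 14 to 56 reads per library.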
